A study of Mus musculus with 2 samples.

Results

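The genes described here are 38 interferon-stimulated antiviral genes of the mouse, listed by symbol: both chains of the type I interferon receptor, the OAS, IFIT and Mx families, the ISG15 modifier system, nucleic acid sensors and further effectors that interferon induces. Array rows that were not controls were kept when the gene name in the file, or the current symbol of the row's RefSeq accession, was on the list. All 38 had a probe, with 54 probes among them, out of 27051 genes with a named probe. All 38 also belonged to the 15628 measured genes, in which at least 1 cell pool was well above background on array 1 and again on array 2. The arrays compared 2 pools of sorted cells. The colon pool held CX3CR1high CD11b+ CD11c+ cells of the large intestinal lamina propria, the connective tissue beneath the gut epithelium, from CX3CR1gfp/+ mice, which carry green fluorescent protein in place of 1 Cx3cr1 allele. The blood pool held Ly6c+ CD11b+ monocytes from C57BL/6J mice. The labels name no treatment and no age for either pool. The design text attaches n = 10 to the former cells and n = 6 to the latter, with no word on what was counted. Array 1 carried the colon pool in red (Cy5) and the blood pool in green (Cy3), and array 2 carried the dyes swapped. Both arrays measured the same pools and count as 1 replicate, so no test was made. Each SD below is the spread between these 2 arrays (n = 2) and covers technical error alone. Tissue, mouse strain and isolation differed together with the cell type and cannot be told apart.

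Type I interferons bind a receptor made of the chains IFNAR1 and IFNAR2, whose kinases JAK1 and TYK2 pass the signal on to transcription factors. These bind the interferon-stimulated response element in the promoters of a large set of genes. The products of those genes detect viral nucleic acid, degrade viral RNA, block translation, trap virions and limit the signal itself. Monocytes and intestinal macrophages both carry the receptor, and many of the genes are also expressed at a basal level without infection.

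More of the interferon-stimulated genes were lower than higher in the colon pool. By a size rule, a ratio of 2-fold or more that way on each of the arrays, 13 of the 38 genes (34.2%) were lower in the colon pool, against 4.47% of all measured genes. On the other side 3 genes (7.89%) were higher, against 14.2% of all measured genes, and 22 genes met the rule in neither direction. That lower share of higher genes depended on the 2-fold threshold. At 1.5-fold 28.9% of the list was higher against 22.3% of all measured genes, and at 4-fold 7.89% against 6.1%. The 3 higher genes were Oasl1, Isg15 and Ifit1. The lower genes were Samhd1, Oasl2, Usp18, Trim30a, Xaf1, Oas2, Dtx3l, Zbp1, Oas3, Oas1a, Parp9, Sp100 and Ifi35. The median log2 ratio, always given as colon over blood, was -0.76 over the 38 genes, with -0.85 on array 1 and -0.79 on array 2, beside 0.06 over all measured genes. All 38 genes had the same sign on both arrays. Of them 11 read above 0 and 27 below, which became 9 and 29 under median centring, where Oas1b and Ifnar2 turned below 0. The spread between arrays had a median of 0.11 for these genes and 0.10 for all genes. Both pools were well above background for 37 of the genes, and among the 13246 measured genes for which that held, 12.9% were higher and 5.07% lower. The list was brighter than all measured genes, at a median log2 intensity of 10.9 against 8.64. Shares called were not taken among equally bright genes, so the shares above compare genes of unlike brightness. In pooled RNA, fewer cells of a type and less RNA per cell cannot be told apart.

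**Figure D1:**
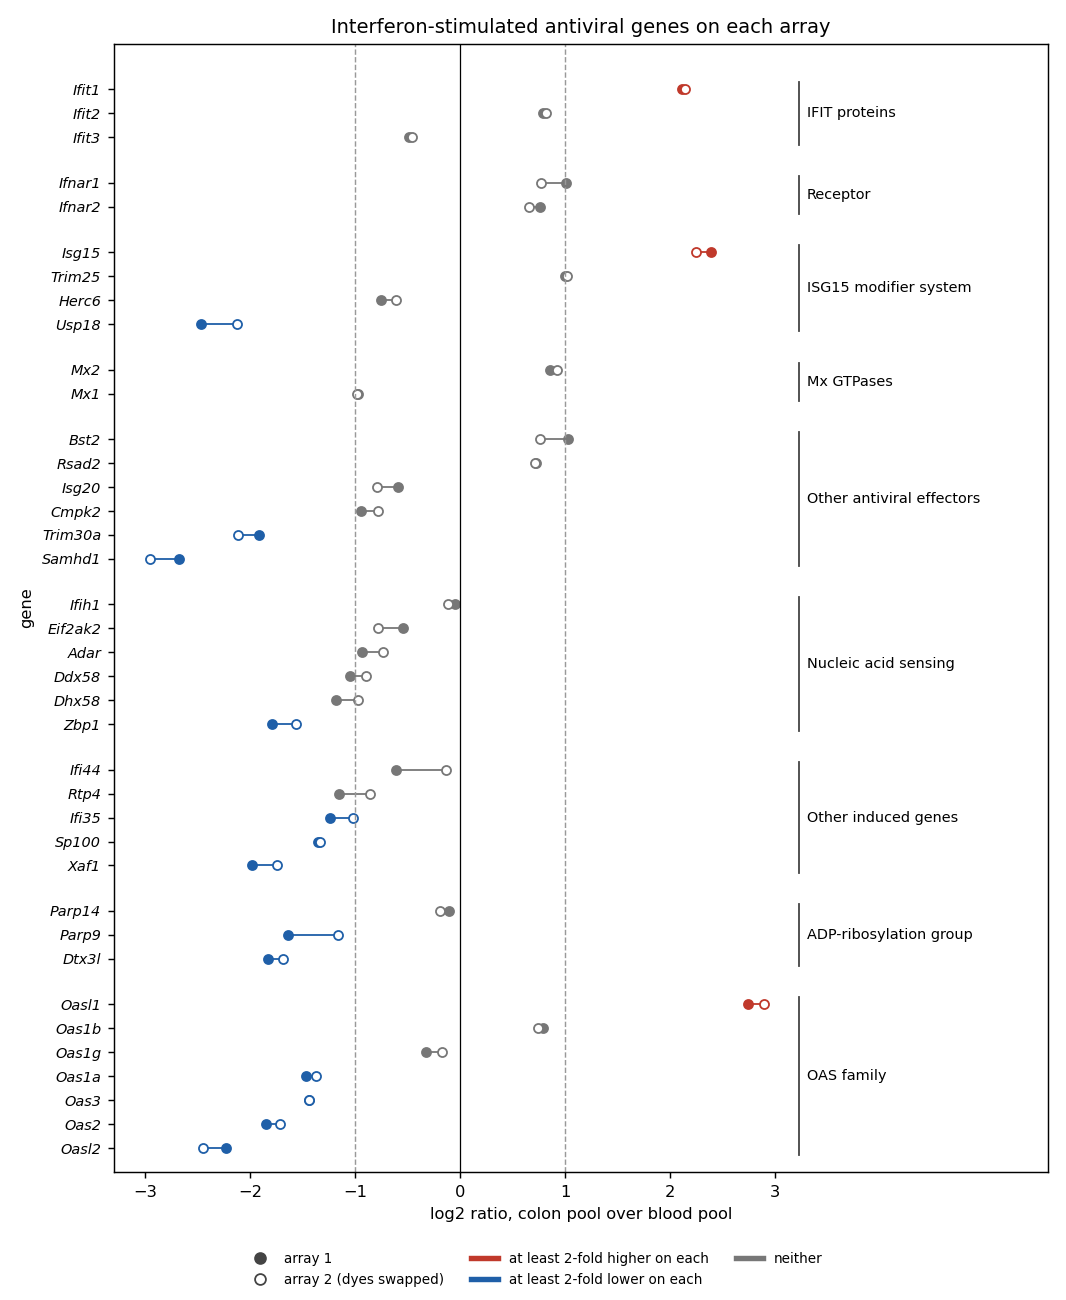
The log2 ratio, colon over blood (x axis), for each of the 38 genes (y axis), grouped by role; filled points are array 1, open points array 2 with the dyes swapped, and dashed lines mark 2-fold. The 3 red genes lie beyond 2-fold to the right on each array and the 13 blue genes beyond 2-fold to the left, and no gene has points on both sides of 0.

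**Figure D2:**
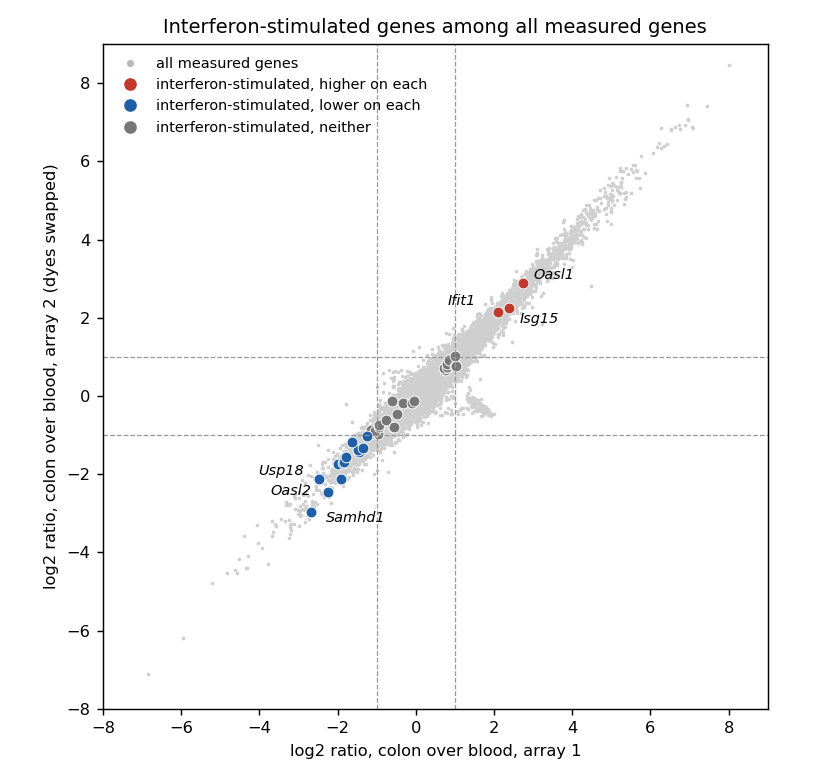
The log2 ratio on array 1 (x axis) against that on array 2 (y axis) for all 15628 measured genes (light grey) and the 38 interferon-stimulated genes (large points, coloured by the 2-fold rule, dashed lines). The interferon-stimulated genes lie along the diagonal, with Oasl1 highest at 2.74 and 2.90 and Samhd1 lowest at -2.68 and -2.96.

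The receptor genes stood above 0 on both arrays and within 2-fold in the mean. Ifnar1, which encodes the signalling chain that recruits TYK2, read 1.005 on array 1 and 0.77 on array 2, a mean of 0.89 ± 0.16 or 1.85-fold. Scanned signals, which carry the brightness of the dye and are not normalized, are given below by dye, the colon pool first. For Ifnar1 they were 3234 and 2826 in red and 1215 and 1113 in green. Its other probes read 1.51 and 0.80, so all 3 probes lay on the same side. Ifnar2, the high-affinity ligand-binding chain, read 0.75 and 0.66, a mean of 0.70 ± 0.07 or 1.63-fold. In red, Ifnar2 signals of 9658 and 9631 hardly differed, and in green the colon signal of 3441 lay under the blood signal of 3900. Under median centring Ifnar1 read 0.20 and Ifnar2 -0.04, so the direction of Ifnar2 turns with the scaling. The Ifnar1 probe lies on chromosome 16 at 91510673 to 91510732 and the Ifnar2 probe at 91394044 to 91394103 of the same chromosome, on mouse build mm9 as are all probe positions given here.

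The OAS family held the highest ratio and the second lowest of the 38 genes. Its enzymes are switched on by double-stranded RNA and make short oligoadenylates that activate RNase L, whereas the OAS-like proteins carry ubiquitin-like domains. Of the 7 genes, 1 was higher, 4 were lower and 2 met the rule in neither direction, with a median of -1.43. Oasl1 encodes a protein without synthetase activity that is known in the mouse as a repressor of Irf7 translation. Oasl1 read 2.74 and 2.90, a mean of 2.82 ± 0.11 or 7.05-fold higher in the colon pool. Its scanned signals were 28368 against 7172 in red and 11603 against 2845 in green, so the colon pool was brighter in either dye. Oasl2, an active synthetase, read -2.23 and -2.45, a mean of -2.34 ± 0.15 or 5.07-fold lower. For Oasl2 the red signals were 1666 in the colon pool and 14167 in the blood pool, and the green ones 615 and 5445. The Oasl1 probe (chromosome 5, 115387861 to 115387920) and the Oasl2 probe (115362168 to 115362227) lie 25.6 kb apart. The difference between both ratios was 5.16 ± 0.26 and ran from 5.099 to 5.28 over 6 other scalings and sources of the ratios.

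To set the promoters of these neighbours beside their opposite ratios, their last bases before the gene start are shown from RefSeq (assembly GRCm38.p6), Oasl1 at chr5:114923140-114923239 and Oasl2 at chr5:114896834-114896933, both on the plus strand. Every sequence here runs 5′ to 3′ on the gene's strand. Capitals mark each match to a core of the interferon-stimulated response element, GAAA followed after any 2 bases by another GAAA, which reads as a pair of TTTC when it lies on the other strand. Neither window of this pair holds a match.
Oasl1: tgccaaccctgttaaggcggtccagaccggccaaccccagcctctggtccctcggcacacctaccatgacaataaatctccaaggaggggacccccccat
Oasl2: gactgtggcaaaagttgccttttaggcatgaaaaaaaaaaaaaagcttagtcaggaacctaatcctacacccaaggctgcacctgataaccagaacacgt

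The larger synthetases and Oas1a were lower in the colon pool. Oas2 read -1.85 and -1.71, a mean of -1.78 ± 0.10 or 3.44-fold lower, with red signals of 1940 and 10945 and green signals of 797 and 4878. Oas3 read -1.44 on both arrays (SD 0.0025, 2.71-fold lower), with 423 and 2108 in red and 213 and 827 in green. Oas1a read -1.47 and -1.38, a mean of -1.43 ± 0.07 or 2.69-fold lower, and its other probe read -1.31. In red its signals were 8372 and 31448, and in green 2610 and 15507. The blood pool was the brighter one for all 3 genes in either dye. The file lists the Oas1a probe (chromosome 5, 121346735 to 121346794) for Oas1g as well, so signal of the near-identical Oas1 genes may be shared. The probe used for Oas1g, which the file lists for Oas1a as well, read -0.33 and -0.18. It was not well above background in the colon pool, so the size of its ratio is not settled. The Oas1g probe listed for no other gene was well above background on both arrays in neither pool, so no value is specific to Oas1g. Oas1b, the flavivirus resistance gene, read 0.76 ± 0.04, but -0.30 from its other probe and -0.0006 under median centring, so no direction is given for it.

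The windows of Oas1a (chr5:120907526-120907565), Oas1g (chr5:120887614-120887651) and Oas3 (chr5:120777705-120777754), all on the minus strand, are printed because these genes hold the motif close to the start. The Oas1g stretch is contained whole in that of Oas1a.
Oas1a: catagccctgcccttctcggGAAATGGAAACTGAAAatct
Oas1g: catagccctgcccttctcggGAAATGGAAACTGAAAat
Oas3: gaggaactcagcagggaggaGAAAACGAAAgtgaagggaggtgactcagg

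The ISG15 system was split between the modifier and the enzyme that removes it. ISG15 is a ubiquitin-like protein that is attached to other proteins and is also secreted. Isg15 read 2.38 and 2.25, a mean of 2.31 ± 0.10 or 4.97-fold higher in the colon pool, and 2.01 from its other probe. Its red signals were 46604 in the colon pool and 20216 in the blood pool, and its green signals 19250 and 5850. Without the loess fit, under median centring, the mean was 1.503 and the gene no longer reached 2-fold on each array. Usp18 encodes the protease that takes ISG15 off its targets and that also blocks signalling at IFNAR2. Usp18 read -2.47 and -2.13, a mean of -2.30 ± 0.24 or 4.92-fold lower, with 620 and 4441 in red and 259 and 2458 in green. The difference of Isg15 over Usp18 was 4.61 ± 0.34. Trim25, an E3 ligase that acts on the RNA sensor RIG-I, lay at the threshold with 0.99 and 1.01 (mean 1.003 ± 0.015). Herc6, the main ISG15 ligase of the mouse, which the file names Herc5, read -0.68 ± 0.10 and -0.80 from its other probe. The Isg15 probe lies on chromosome 4 at 155573649 to 155573708 and the Usp18 probe on chromosome 6 at 121220874 to 121220933.

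The Isg15 window (chr4:156200855-156200916, minus strand) is shown because it had the most matches of any window printed here, 3 that overlap and begin 78 to 66 bases before the start.
Isg15: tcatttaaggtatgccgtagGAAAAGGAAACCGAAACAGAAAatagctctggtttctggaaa

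The IFIT genes differed among themselves within 1 cluster on chromosome 19. The IFIT1 protein binds viral RNA that lacks host-type cap methylation and holds back its translation. Ifit1 read 2.11 and 2.14, a mean of 2.13 ± 0.022 or 4.36-fold higher in the colon pool. Its red signals were 1378 and 426 and its green signals 587 and 209, the colon pool brighter in each dye. Under median centring it read 1.58 in the mean and did not reach 2-fold on each array. Ifit2 read 0.80 ± 0.018 and Ifit3, which stabilises IFIT1 complexes, -0.48 ± 0.016. The Ifit1 ratio exceeded that of Ifit2 by 1.33 ± 0.0036 and that of Ifit3 by 2.60 ± 0.0060. Over 6 other scalings and sources of the ratios these differences ran from 1.33 to 1.56 and from 2.60 to 2.88. Their probes lie at 34723796 to 34723855 (Ifit1), 34650244 to 34650303 (Ifit2) and 34663105 to 34663164 (Ifit3).

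The windows of Ifit1 (chr19:34640765-34640833) and Ifit3 (chr19:34583353-34583436), both on the plus strand, are shown together because each holds 2 matches on the other strand while the ratios have opposite signs.
Ifit1: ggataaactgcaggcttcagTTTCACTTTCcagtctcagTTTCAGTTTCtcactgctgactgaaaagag
Ifit3: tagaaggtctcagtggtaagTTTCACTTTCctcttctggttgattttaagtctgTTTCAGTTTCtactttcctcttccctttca

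Neither Mx gene met the rule, although Mx1 did so with the scanner software's ratios. The Mx proteins are dynamin-like GTPases, in the mouse nuclear for Mx1 and cytoplasmic for Mx2. Mx2 read 0.85 and 0.92, a mean of 0.89 ± 0.05, and Mx1 read -0.98 on both arrays (SD 0.0034). The Mx genes therefore stood 1.87 ± 0.06 apart, and the sign of each held under median centring, at 0.21 and -1.66.

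Among the other effectors the restriction factor Samhd1, which hydrolyses the deoxynucleotides that reverse transcription needs, had the lowest ratio of the 38 genes. Samhd1 read -2.68 and -2.96, a mean of -2.82 ± 0.20 or 7.05-fold lower in the colon pool, and -2.27 from its other probe. Its red signals were 6395 and 60325 and its green signals 1654 and 27159, so the blood pool was brighter in each dye. The probe lies on chromosome 2 at 156923265 to 156923324. Trim30a, which restrains Toll-like receptor signalling and is named Trim30 in the file, read -1.91 and -2.11, a mean of -2.01 ± 0.14 or 4.04-fold lower. For Trim30a (chromosome 7, 111557578 to 111557637) the signals were 1127 and 7180 in red and 409 and 2972 in green. The remaining 4 effectors ran from -0.86 to 0.89. Bst2, whose product tetherin holds budding virions at the cell surface, read 0.89 ± 0.19, and Rsad2, which encodes viperin, read 0.72 ± 0.0067. Isg20, an exonuclease gene, read -0.69 ± 0.14, and -1.02 from its other probe. The nucleotide kinase gene Cmpk2, the neighbour of Rsad2, read -0.86 ± 0.11. A second Cmpk2 probe read -1.43, and with the mean over its probes Cmpk2 met the rule. Rsad2 exceeded Cmpk2 by 1.58 ± 0.12 on chromosome 12, with 35.0 kb between their probes.

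A window of Trim30a (chr7:104465200-104465249, minus strand) is shown as a lower gene with 1 match, 36 bases before the start, and that of Rsad2 (chr12:26456543-26456592, minus strand) as a gene above 0 with 1 match, 120 bases before it.
Trim30a: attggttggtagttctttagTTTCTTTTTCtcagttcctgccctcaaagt
Rsad2: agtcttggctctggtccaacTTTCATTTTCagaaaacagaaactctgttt

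All 6 genes of nucleic acid sensing read below 0 in the mean, although Ifih1 read 0.34 from its other probe, and 1 of the 6 met the rule. With the scanner software's ratios, or with array 2 left out, Ddx58 and Dhx58 met it as well. Zbp1, a sensor of Z-form nucleic acid that triggers cell death, read -1.79 and -1.57, a mean of -1.68 ± 0.16 or 3.20-fold lower, and -2.59 from its other probe. Its signals were 2573 and 12270 in red and 976 and 6145 in green, and its probe lies on chromosome 2 at 173039307 to 173039366. The blood pool was again brighter in each dye. The RIG-I-like receptors ran from near 0 to about 2-fold lower. Dhx58, which encodes the regulator LGP2, read -1.18 and -0.98 (mean -1.08 ± 0.15) and missed the rule on array 2. Ddx58, the gene of RIG-I, read -0.98 ± 0.11, and Ifih1, the gene of MDA5, -0.08 ± 0.05. The kinase gene Eif2ak2, whose product PKR halts translation, read -0.67 ± 0.17 and the RNA editing enzyme gene Adar -0.84 ± 0.14. A second Adar probe read -1.17 and -1.22, which alone would meet the rule.

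Parp9 and Dtx3l, whose products form a complex with ubiquitin ligase and ADP-ribosylation activity, were both lower in the colon pool. Dtx3l read -1.83 and -1.69, a mean of -1.76 ± 0.10 or 3.38-fold lower, with signals of 1164 and 6404 in red and 485 and 2904 in green. Its other probe read -0.70, which alone would not meet the rule. Parp9 read -1.64 and -1.17, a mean of -1.40 ± 0.34 or 2.65-fold lower, with 703 and 3010 in red and 351 and 1563 in green, and had the largest spread between arrays of the 38 genes. Parp14, an ADP-ribosyltransferase gene of the same cluster, read -0.15 ± 0.06 and stood 1.61 ± 0.16 above Dtx3l. The probes lie on chromosome 16 at 35926655 to 35926714 (Dtx3l), 35972577 to 35972636 (Parp9) and 35832992 to 35833051 (Parp14).

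Of the 5 remaining induced genes 3 were lower and all 5 read below 0. Xaf1, which antagonises the apoptosis inhibitor XIAP, read -1.98 and -1.75, a mean of -1.87 ± 0.17 or 3.65-fold lower, and -1.60 from its other probe. Its signals (probe on chromosome 11, 72122169 to 72122228) were 642 and 3540 in red and 277 and 1785 in green. Sp100, a component of nuclear bodies, read -1.35 and -1.34, a mean of -1.35 ± 0.010 or 2.54-fold lower, but -2.32 with the scanner software's ratios. With 196 and 784 in red and 99.7 and 364 in green, Sp100 (chromosome 1, 87605957 to 87606016) was brighter in the blood pool in each dye. Ifi35 (chromosome 11, 101319011 to 101319070) was the gene just inside the rule, with -1.24 and -1.02 (mean -1.13 ± 0.16, 2.19-fold lower). Its signals were 1103 and 3943 in red and 496 and 1837 in green, and under median centring it missed the rule. Rtp4 read -1.16 and -0.86 (mean -1.01 ± 0.21) and Ifi44 -0.61 and -0.14 (mean -0.38 ± 0.33).

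**Figure D3:**
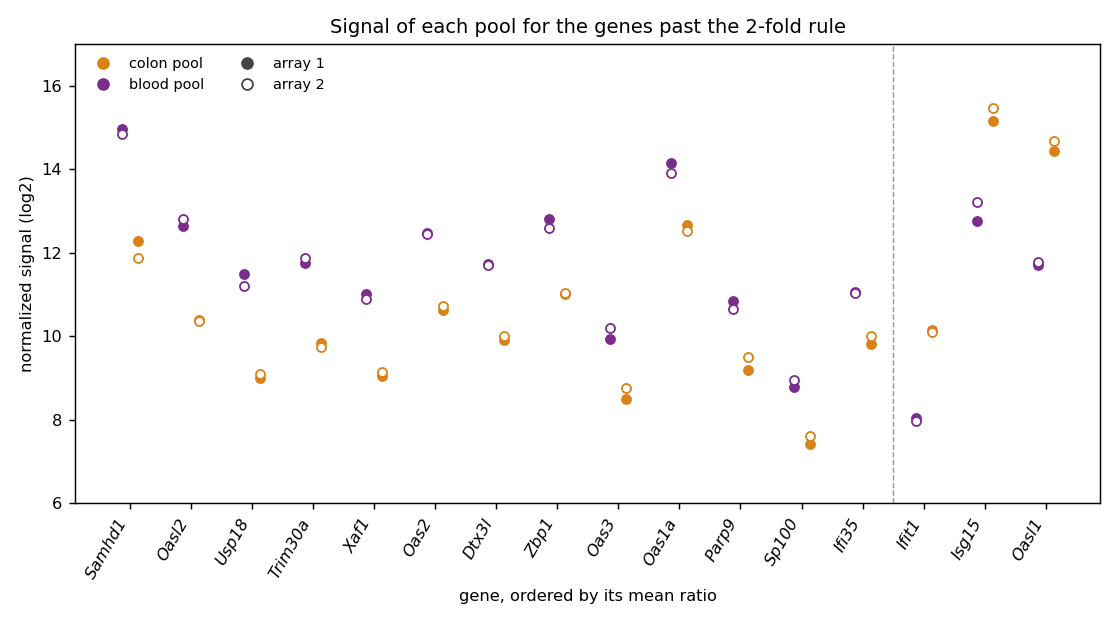
Normalized log2 signal (y axis) of the colon pool (orange) and the blood pool (purple) on array 1 (filled) and array 2 (open) for the 16 genes past the 2-fold rule, ordered by mean ratio (x axis); levels are not compared between genes. For the 13 genes left of the dashed line both blood points lie above both colon points, and for Ifit1, Isg15 and Oasl1 both colon points lie above both blood points.

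Genes that lie together did not have to share a direction. Opposite signs on both arrays were found for Oasl1 and Oasl2, for Ifit1 and Ifit3, for Mx2 and Mx1, and for Rsad2 and Cmpk2, and the sign of each of these differences held under 6 of 6 other scalings and sources. For the receptor genes the difference was 0.18 ± 0.10, and for Parp9 over Dtx3l it was 0.35 ± 0.24, both near the spread between arrays.

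The response element motif was common in the promoters of the list and was found among higher and lower genes alike. A RefSeq promoter, from 250 bases before to 50 bases after the gene start, was matched for 28 of the 38 genes. The motif, GAAA and GAAA with any 2 bases between them, on either strand and counting overlapping matches, occurred in 12 of these 28 (42.9%), against 3.99% of 27025 genes with a promoter and 3.87% of 10895 measured genes with one. Of the 3 higher genes 2 held it, of 9 lower genes 3, and of 16 genes that met the rule in neither direction 7. Isg15 and Ifit1 held it and Oasl1 did not, and among the lower genes Trim30a, Oas3 and Oas1a held it. The other 7 genes were Ifit3, Oas1g, Rsad2, Bst2, Ddx58, Eif2ak2 and Ifih1. In Ddx58, Eif2ak2 and Ifih1 the match began 2, 18 and 32 bases past the start. Such a match describes letters in this window and is not a measured binding site. Genes without a promoter entry were Oas2, Usp18, Rtp4, Mx2, Oas1b, Zbp1, Parp9, Parp14, Dhx58 and Mx1.

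The size of the shift depended on how the arrays were scaled. The interferon-stimulated genes were brighter than most, with a median log2 intensity of 10.9 against 8.64 for all measured genes. Median centring without a loess fit left 2986 genes as bright as the middle 50% of the list at 0.26 on array 1 and -1.66 on array 2, a difference between dyes that follows intensity. In the mean those bright genes stood at -0.70 and all genes at -0.28, and the median of the interferon-stimulated genes was -1.41. Set against equally bright genes, the list stood at -0.75 with loess, -0.72 with median centring and -0.999 with the scanner software's ratios, under which all genes had a median of -0.12. Under median centring 1 of the list was higher, Oasl1, and 12 were lower. At 1.5-fold 11 of the 38 genes were higher (28.9%) and 21 lower (55.3%), beside 22.3% and 11.0% of all measured genes. At 4-fold 3 were higher (7.89%) and 3 lower (7.89%), beside 6.1% and 0.832%. The share of the list that was higher thus lay above that of all genes at both of these thresholds. With the software's ratios 3 were higher and 21 lower, beside 20.3% and 13.3% of all measured genes. The 8 genes that became lower were Oas1g, Mx1, Ifi44, Ddx58, Dhx58, Herc6, Cmpk2 and Rtp4. Calls in the higher direction were 18.8% of the list's calls and 76.1% of all calls with loess, 12.5% and 60.5% with the software's ratios, and 7.69% and 67.1% with median centring.

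**Figure D4:**
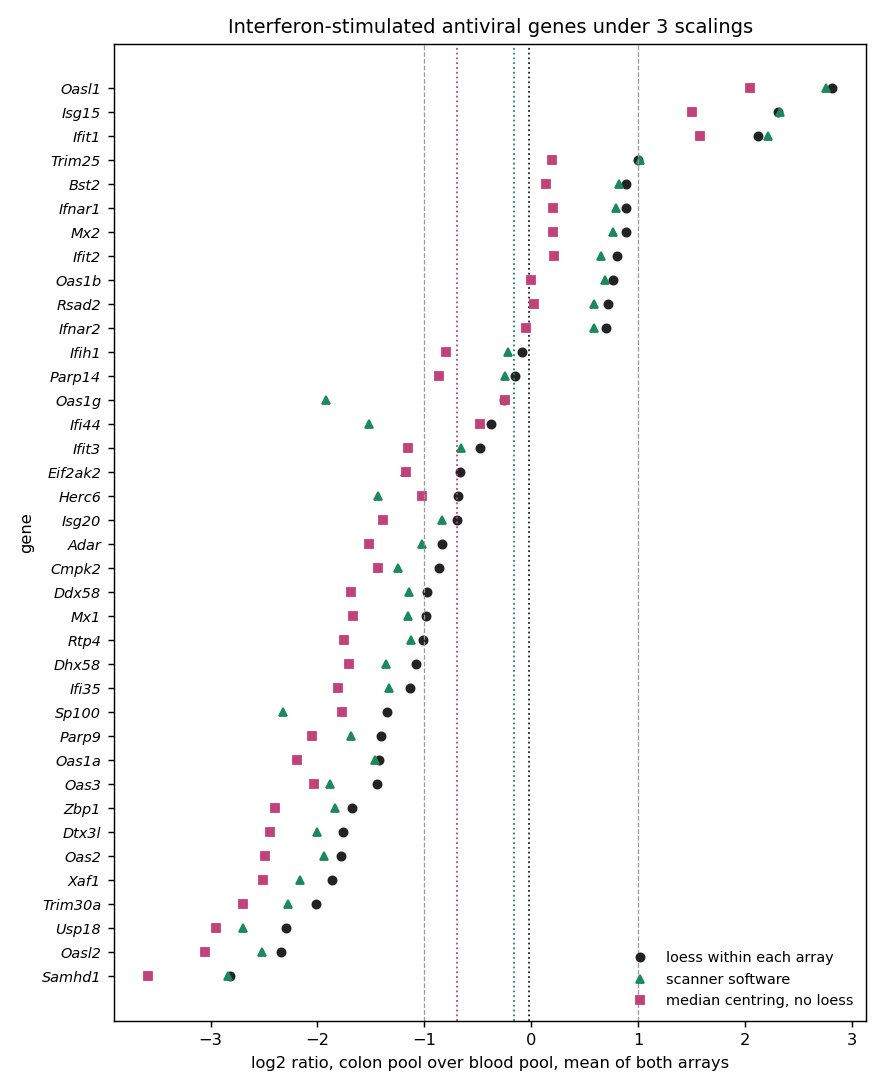
Mean log2 ratio of both arrays (x axis) for each of the 38 genes (y axis) after a loess fit within each array (circles), from the scanner software (triangles) and after median centring alone (squares); dotted lines mark the median of equally bright genes under each scaling, and dashed lines 2-fold. Oasl1, Isg15 and Ifit1 lie to the right of all others under each scaling, and the squares are shifted to lower values together with their dotted line.

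Genes that produce interferon or carry its signal lay on both sides, to be read against 14.2% higher and 4.47% lower among all measured genes. Of 20 listed genes of sensing and interferon production 19 were measured, with a median of 0.11, 2 higher and 1 lower. Ifnb1, which encodes interferon beta, read 7.19 ± 0.37, and Traf3, an adaptor that links sensors to the kinases of interferon production, 1.51 ± 0.14. Irf7, the factor that amplifies interferon production and is itself interferon-induced, was lower at -2.45 ± 0.05. The median of this list was -0.44 under median centring and -0.07 with the software's ratios, so it has no settled side of 0. Receptor signalling genes, 10 in number, had a median of -0.31, with 2 higher and 2 lower. The feedback inhibitor genes Socs3 (2.41 ± 0.10) and Socs1 (2.24 ± 0.024) were higher. The phosphatase gene Ptpn6 (-2.16 ± 0.0091) and the receptor kinase gene Tyk2 (-1.46 ± 0.15) were lower. The transcription factor genes Stat2 (-0.76 ± 0.23) and Irf9 (-0.73 ± 0.04) did not meet the rule.

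A further list held 50 genes induced by type I or type II interferon, of which 47 were measured. Of these 5 were higher (10.6%) and 18 lower (38.3%), beside 14.2% and 4.47% of all measured genes. The median was -0.66, with -1.39 under median centring and -0.85 with the software's ratios. Higher were the chemokine genes Ccl5 (5.64 ± 0.12), Cxcl10 (4.69 ± 0.44) and Cxcl9 (3.02 ± 0.11), whose products attract T cells, and Cd274 (2.82 ± 0.019), which encodes the checkpoint ligand PD-L1. The lowest were Slfn1 (-2.99 ± 0.13), Trim34a (-2.19 ± 0.03), the GTPase gene Ifi47 (-1.94 ± 0.08) and Slfn5 (-1.87 ± 0.88), the last with a wide spread between arrays. As among the antiviral genes, the lower members outnumbered the higher ones.

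Genes of the sorting gates differed between the pools in part, and transcripts of other cell types differed with them. Itgax, which encodes CD11c, was higher in the colon pool (3.35 ± 0.08), and Ly6c1 (-3.28 ± 0.09) was lower. Itgam, which encodes CD11b (-0.46 ± 0.33), and Cx3cr1 (0.10 ± 0.25) did not meet the rule. The mice of the colon pool had 1 Cx3cr1 allele replaced, so genotype and cell type cannot be told apart in the Cx3cr1 ratio. Of genes listed with the gate genes that are in neither gate, Ccr2 was lower (-3.90 ± 0.18). C1qb (5.70 ± 0.07), C1qa (4.90 ± 0.018), Mertk (3.24 ± 0.035) and Adgre1 (2.10 ± 0.19) were higher, and Cd68 (0.80 ± 0.0096) did not meet the rule. Marker counts are to be read against 14.2% higher and 4.47% lower among all measured genes. Summed scanned signals are given per pool from green to red, so each range carries the brightness of the dye. All 8 fibroblast markers were higher in the colon pool, where their signals summed to 57522 to 137691. In the blood pool they summed to 1199 to 2533, and 6 of 8 were well above background. Of the epithelial markers 6 of 8 were higher (3112 to 7355 against 596 to 806, with 3 of 8 above background in blood), of the B and plasma cell markers 7 of 8 (17192 to 43816 against 1982 to 4389), and of the T cell markers 5 of 7 (2259 to 5502 against 811 to 968). Plasmacytoid dendritic cells, a major source of type I interferon, are marked by 10 genes here, Bst2 among them. Of these 4 were higher and 0 lower, with sums of 15215 to 42568 in the colon pool and 16321 to 39815 in the blood pool, and Siglech read 0.63 ± 0.017. Of 5 measured NK cell markers 1 was higher (1282 to 2861 against 1572 to 3309), and of 10 neutrophil markers 4 were lower (5925 to 18244 against 86326 to 158370). The lower neutrophil markers were Mmp8 (-4.99), S100a8 (-3.63), S100a9 (-3.28) and Cxcr2 (-1.98). Ly6g (0.11), Elane (0.47), Mpo (-0.27), Camp (-0.33), Ltf (0.0032) and Retnlg (-0.012) did not meet the rule. Genes that cell isolation can induce were higher for 6 of 13 and lower for 0 (108670 to 319348 against 134283 to 333711). For the isolation genes, as for the NK cell and neutrophil markers, the blood pool had the larger sum in either dye. Such sums are not normalized and weigh bright genes most, so they can differ in direction from the ratios of single genes. The part of all these marker transcripts in the ratios of the interferon-stimulated genes was not tested.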

How the data were processed

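Mouse RNA from 2 pools was amplified from an oligo-dT primer, labelled from 25 ng and hybridised as a dye swap to 2 Agilent arrays (design 026655, 60-base probes), as the labels' protocols and file headers record. The deposited scanner files hold spot intensity in linear units, not normalized, and the software's log10 ratio after its own dye normalization, per the file headers. Other columns, such as flags, names and mm9 positions, were used as deposited. The deposited value table equals the software's log10 ratio on array 1 and its sign-turned value on array 2, so it runs colon over blood. The submitters' processing notes name Feature Extraction 10.5.1.1, whereas the headers name 10.7.3.1. No batch was testable, since the arrays shared a slide and a scan time. Nothing states that they used the same extracts, but both name the same pools.

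Intensities were corrected by normexp with an offset of 50 and normalized by loess within each array, giving control and outlier spots no weight (limma 3.58.1, R 4.3.3). Array 2 was turned, so every ratio is colon over blood. Spots were averaged into 39424 probes, and the brightest measured probe gave the value of a gene. Of 43020 spots, 29529 were named by RefSeq accession, 8751 by the file and 4740 not at all, with names of assembly GRCm38.p6, whose coordinates were used for promoters alone. No annotation of mm9 was used, so the place of a probe within its gene is not given. By pool and dye, 52.2% to 58.5% of probes stood well above background, and no spot was saturated. The number of arrays limits the precision. On simulated arrays of this comparison with 42617 probes, changes were given to brighter probes alone, in equal numbers up and down. Of 100 with a true log2 change of 1.5, 90 were called (75 of 75 of the brightest among them). All 100 with a change of 3 were called, with 0 calls among 42417 unchanged probes. Median fitted sizes were 1.38 and 2.82. In the real data 14.2% of measured genes were higher and 4.47% lower. The simulated rates therefore cannot be carried over to the real arrays or to dim probes. Fitted sizes were smaller than the true ones, with 1.42 and 2.90 for the brightest probes. The simulation was run with the offset of 50 alone, so it cannot show what the offset did. With an offset of 16 the dim genes Ifi44 and Oas1g read -0.55 and -0.44, against -0.38 and -0.25 with 50.

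The genes, the further lists and the motif were chosen with earlier results of these data known. Named in full were all genes past the 2-fold rule and both receptor genes, with at most 4 genes per direction from each further list. Siglech, Stat2, Irf9, the neutrophil and isolation genes, the gate genes and those listed with the gate genes were named after their values were seen. Alternatives covered background correction, offset, centring, source of the ratios, probes, filters, the size rule and each array alone.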

Additional observations from a re-analysis of the deposited data

How the results depend on the processing

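The 16 genes past the 2-fold rule all kept their call under no background correction, an offset of 16, Aquantile scaling, the software's ratios, the deposited table, other filters, the mean over probes, 1.5-fold and each array alone. Under median centring 13 kept it, without Ifi35, Ifit1 and Isg15, and at 4-fold 6 did. No call turned direction. Of the list, the number higher was 1 under median centring, 11 at 1.5-fold and 4 to 5 with either array left out. The number lower was 21 with the software's ratios or the deposited table, 21 at 1.5-fold, 3 at 4-fold and 13 to 16 with either array left out. The median was -0.83 with an offset of 16, -1.41 with median centring, -1.16 with the software's ratios or the deposited table, -0.91 with the mean over probes, -0.84 with both pools above background and -0.85 to -0.79 with either array left out. Over all measured genes the number higher was 1137 under median centring, 3485 at 1.5-fold, 953 at 4-fold and 2394 to 2638 with either array left out. The number lower was 2072 with the software's ratios or the deposited table, 1719 at 1.5-fold, 130 at 4-fold and 845 to 857 with either array left out. Median centring with the mean of both arrays at 2-fold, chosen after seeing the data, gave 3 higher and 23 lower genes of the list and 1858 higher and 2781 lower genes in all. The mean of both arrays with loess, also chosen after seeing the data, added Dhx58, Rtp4 and Trim25. The cause of these shifts was not tested beyond the change in rule or scale itself.

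One pool per cell type leaves the spread between animals unknown, and the offset shrinks ratios of dim genes such as Ifi44 and Oas1g. No paired analysis was possible because the labels carry no replicate numbers and both arrays measured the same pools.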
